A study of Homo sapiens with 24 samples.

Results

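The mimics of miR-410 and miR-369-3p, microRNAs (miRs) encoded at the same human locus but carrying different A/U-rich seeds, were compared with each other in MDA-MB-231 cells, a human breast cancer line. The comparison used 4 of the 24 arrays in the series, 2 for each mimic. Its members were the 19482 probes, of 47309, for which at least 1 of these mimics had a detection p-value below 0.05 on each of its arrays. By the brightest probe of each gene they represent 11267 of 12529 genes tested in the series. Of these, 18243 were detected on both miR-410 arrays, 18670 on both miR-369-3p arrays and 17431 on all 4. All cells in the groups used here were grown in DMEM with fetal calf serum, transfected at 50 nM and harvested at 48 hours, and total RNA was hybridized to Illumina HT12v4 bead arrays. Besides the mimic arrays, 2 arrays each of a non-targeting (NT) control mimic, the miR-655-3p mimic, and inhibitors of miR-410, miR-369-3p and miR-655-3p are used. The control mimic was fluorescently tagged according to the methods. The labels do not name the arm of the miR-410 mimic, nor do they tell whether a group's arrays represent different cultures. The p-values therefore reflect the spread between these arrays, which may be technical.

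A microRNA loaded into an Argonaute protein pairs through its seed, bases 2 to 8 counted from the 5′ end, with complementary sites that lie mostly in the 3′ untranslated regions of messenger RNAs, and the paired messenger RNA is degraded or poorly translated. A mimic is a synthetic RNA that supplies the mature microRNA in excess, and an inhibitor is a synthetic RNA that binds it. Both microRNAs belong to the large cluster of the imprinted DLK1-DIO3 locus on chromosome 14, which is transcribed as long polycistronic precursors.

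The mature sequences are shown because the mimics differ both in their seeds and in the bases beyond them. They were taken from RefSeq (GRCh38.p14), with seed bases 2 to 8 in capitals, and miR-655-3p is added because its arrays serve as an outside comparison. The entry named hsa-miR-410-3p is shown for miR-410, the arm that bore this name before arms were numbered.
hsa-miR-410-3p: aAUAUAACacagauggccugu
hsa-miR-369-3p: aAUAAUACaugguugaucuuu
hsa-miR-655-3p: aUAAUACAugguuaaccucuuu
On the plus strand of chromosome 14, hsa-miR-410-3p lies at chr14:101065961-101065981, hsa-miR-369-3p at chr14:101065641-101065661 and hsa-miR-655-3p at chr14:101049610-101049631. The hairpins of miR-369 and miR-410 are separated by 244 bases. Each seed has 6 A or U bases among its 7. The longest run of bases that miR-410 shares with miR-369-3p is 4 bases. MiR-655-3p shares a run of 13 bases with miR-369-3p, AUAAUACAUGGUU, but begins 1 base later in that run, so that their seeds overlap in the 6 bases UAAUAC and are not identical.

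The 4 arrays had median signals of 101.7 to 120.2 and 19822 to 20593 detected probes, within the range of all 24 arrays (101.7 to 123.1 and 19754 to 21286). Across probes, which are not independent replicates, log2 signals correlated at r = 0.993 between the miR-410 arrays, 0.997 between the miR-369-3p arrays and 0.990 to 0.991 between arrays of different mimics. The median size of the log2 difference between replicates was 0.160 for miR-410 and 0.096 for miR-369-3p, against 0.164 between the means of the mimics, so the typical difference was as large as that between the miR-410 arrays. All 16 measured genes that MDA-MB-231 cells usually express strongly, among them VIM, CD44, AXL and EGFR, were detected with both mimics, whereas of 11 genes they usually express little or not at all 8 were not detected with either, among them CDH1, ESR1 and PGR, and CLDN3, CLDN4 and GATA3 were detected with at least 1 mimic. Of 9 leukocyte markers, CD14, CD68 and CSF1R were detected and PTPRC, CD3E, CD3D, MS4A1, ITGAM and LYZ were not. Their summed signal was 1148 to 1243 with miR-410 and 991 to 1039.6 with miR-369-3p, CD14 being called lower with miR-410 (-0.73) and CSF1R higher (0.54, lost without either miR-410 array or miR-369-3p replicate 1, adjusted p up to 0.282). COL1A1, COL1A2 and PDGFRB were the fibroblast markers detected, 3 of 10, with summed signals of 432 to 449 against 340.1 to 369.4, and of 8 endothelial markers ESAM and ROBO4 were detected, with sums of 419 to 457 against 453 to 460.0.

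The mimics differed at a small share of probes, more often through lower signal with miR-410. Signals here are 2 to the power of normalized log2 intensities, and a probe was called where limma's Benjamini-Hochberg adjusted p was under 0.05 and the fold at least 1.4. Of the member probes, 476 were lower with miR-410 (2.44%) and 306 were higher (1.57%), together 782 (4.01%), limma being fitted across all 24 arrays. At an unadjusted p under 0.05, 3438 differed. A fold of at least 2 was reached by 121 of the lower and 27 of the higher probes, with median log2 differences of -0.80 and 0.67. The arrays of the mimics did not overlap at any of the 782, and neither did they at 54.2% of all member probes. By the brightest probe of each gene, 332 of 11267 member genes were lower (2.95%) and 209 higher (1.85%), 541 together (4.8%). Leaving out any single array brought the probe counts down to between 241 and 370 lower and between 107 and 166 higher. The counts were 241 and 123 without miR-369-3p replicate 1, 259 and 107 without miR-369-3p replicate 2, 271 and 166 without miR-410 replicate 1, and 370 and 147 without miR-410 replicate 2. SAM, the test of the study's methods, called 417 lower and 20 higher.

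**Figure D1:**
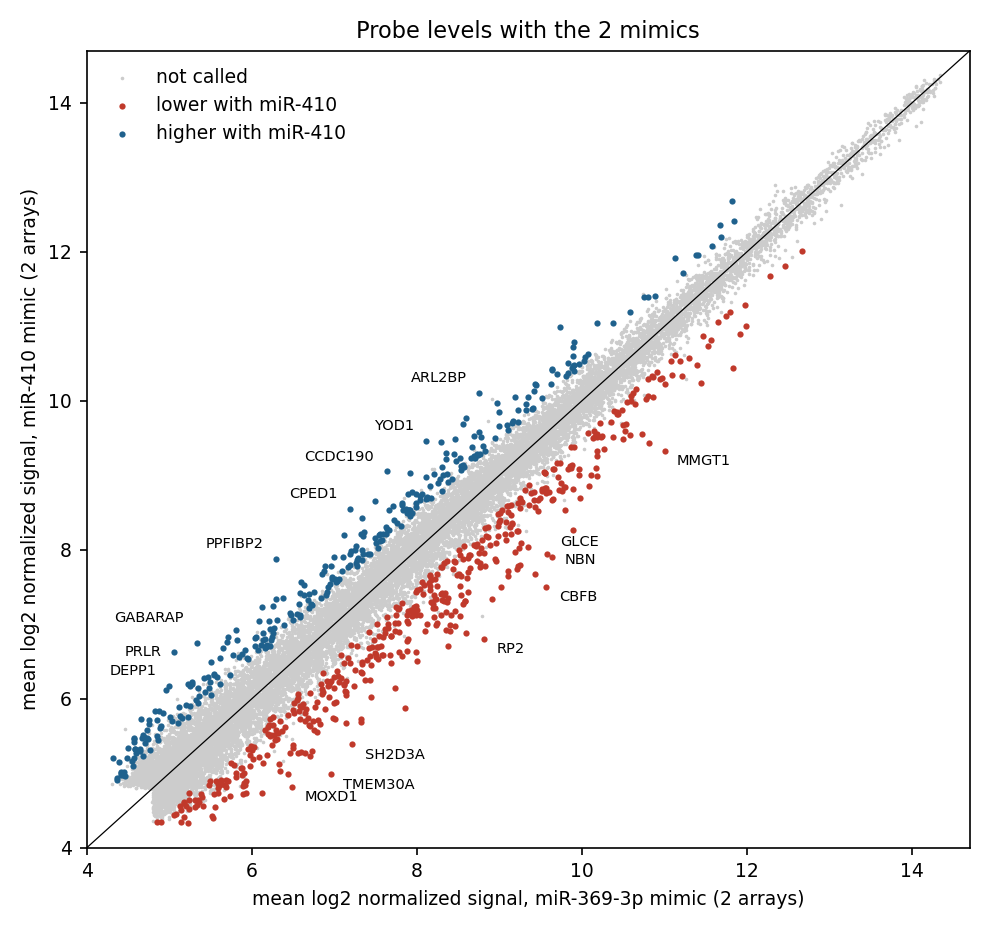
Mean log2 normalized signal of each member probe with the miR-369-3p mimic (x axis) and the miR-410 mimic (y axis), 2 arrays each, with the line of equality. The 476 probes called lower with miR-410 (red) reach farther from the line than the 306 called higher (blue), with CBFB lowest by log2 difference and PPFIBP2 highest.

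Among genes lower with miR-410, the largest differences belonged to genes of varied roles, from transcription to membrane trafficking. CBFB, the non-DNA-binding partner of RUNX transcription factors, measured 188 and 176 on the miR-410 arrays, 778 and 743 on the miR-369-3p arrays and 884 and 895 on the NT arrays (-2.06 ± 0.12 SE, adjusted p = 1.61e-07). RP2, which activates GTP hydrolysis by the small GTPase ARL3, measured 101 and 124 on the miR-410 arrays, 459.9 and 440.0 on the miR-369-3p arrays and 418 and 391.5 on the NT arrays (-2.004 ± 0.22 SE, adjusted p = 4.62e-05). TMEM30A, the accessory subunit of phospholipid flippases, measured 26.4 and 38.3 on the miR-410 arrays, 111 and 139 on the miR-369-3p arrays and 186 and 218 on the NT arrays (-1.96 ± 0.25 SE, adjusted p = 0.000205). For these 3 genes both miR-410 arrays lay below all miR-369-3p and NT arrays, but TMEM30A was detected on only 1 of the miR-410 arrays. SH2D3A, an SH2-domain adaptor, measured 41.9 and 42.1 on the miR-410 arrays, 150.5 and 148 on the miR-369-3p arrays and 60.1 and 69.9 on the NT arrays (-1.83 ± 0.20 SE, adjusted p = 3.89e-05). Here the groups were also separate, and miR-369-3p lay above the control. NBN, nibrin of the complex that senses DNA double-strand breaks, measured 239 and 239 on the miR-410 arrays, 805 and 784 on the miR-369-3p arrays and 715 and 661 on the NT arrays (-1.73 ± 0.15 SE, adjusted p = 3.95e-06). MOXD1, a relative of dopamine beta-hydroxylase, measured 25.6 and 31.1 on the miR-410 arrays, 89.2 and 90.7 on the miR-369-3p arrays and 83.0 and 86.7 on the NT arrays (-1.67 ± 0.19 SE, adjusted p = 6.19e-05), with detection on 1 of the miR-410 arrays. In both, miR-369-3p stood slightly above the control and miR-410 far below it.

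In MMGT1 and GLCE, the next genes in that order, miR-369-3p was close to the control. MMGT1, a subunit of the endoplasmic reticulum membrane complex, measured 573 and 723 on the miR-410 arrays, 2104 and 2001 on the miR-369-3p arrays and 1962 and 1993 on the NT arrays (-1.67 ± 0.13 SE, adjusted p = 1.88e-06). Its other probe gave -1.76 (adjusted p = 1.13e-05). GLCE, the epimerase of heparan sulfate synthesis, measured 231 and 262 on the miR-410 arrays, 768 and 766 on the miR-369-3p arrays and 738 and 752 on the NT arrays (-1.64 ± 0.13 SE, adjusted p = 1.88e-06). The mimics did not overlap in either gene. The rest of the 15 lowest were PRKCE, protein kinase C epsilon (-1.63), TMEM64 (-1.59), the BMP receptor BMPR2 (-1.57), TSNAX, the partner of translin (-1.52), the ubiquitin ligase ITCH (-1.49), PRXL2C (-1.48) and CDS1, which makes CDP-diacylglycerol (-1.48). TSNAX, at 227 and 144 on the miR-410 arrays and 516 and 521 on the miR-369-3p arrays, lost its call without miR-410 replicate 2, miR-369-3p replicate 1 or miR-369-3p replicate 2 (adjusted p up to 0.171). CDS1 lost its call with plain background subtraction (adjusted p = 0.168).

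Genes higher with miR-410 differed in where the control lay. In some of them miR-369-3p was near the control and miR-410 above it. PPFIBP2, liprin beta 2, measured 243 and 229 on the miR-410 arrays, 77.5 and 79.7 on the miR-369-3p arrays and 94.4 and 83.3 on the NT arrays (1.59 ± 0.21 SE, adjusted p = 0.000248). DEPP1, a FOXO-induced regulator of autophagy, measured 68.3 and 76.5 on the miR-410 arrays, 35.7 and 28.5 on the miR-369-3p arrays and 31.9 and 33.3 on the NT arrays (1.18 ± 0.18 SE, adjusted p = 0.000906). Both arrays of miR-410 were above every control and miR-369-3p array for these genes. SCG2, secretogranin II of secretory granules, was similar at 391 and 416 on the miR-410 arrays, 177 and 185 on the miR-369-3p arrays and 172 and 167 on the NT arrays (1.16 ± 0.11 SE, adjusted p = 1.28e-05). DEPP1 was not called without background correction.

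In others miR-369-3p was below the control and miR-410 nearer to it. ARL2BP, a binding protein of the small GTPase ARL2, measured 1096 and 1109.7 on the miR-410 arrays, 437 and 429 on the miR-369-3p arrays and 1375 and 1305 on the NT arrays (1.35 ± 0.11 SE, adjusted p = 2.55e-06). YOD1, a deubiquitinase, measured 667 and 748 on the miR-410 arrays, 296 and 261 on the miR-369-3p arrays and 976 and 1015 on the NT arrays (1.35 ± 0.11 SE, adjusted p = 3.04e-06). CPED1 measured 350.2 and 402 on the miR-410 arrays, 142 and 151 on the miR-369-3p arrays and 346 and 359.6 on the NT arrays (1.36 ± 0.13 SE, adjusted p = 1.44e-05). The miR-369-3p arrays were the lowest of the 3 groups for each, and miR-410 overlapped the control for CPED1 only. PRLR, the prolactin receptor, measured 88.3 and 112 on the miR-410 arrays, 37.6 and 29.6 on the miR-369-3p arrays and 71.5 and 66.9 on the NT arrays (1.57 ± 0.16 SE, adjusted p = 1.64e-05), and CCDC190 measured 460.4 and 617 on the miR-410 arrays, 199.7 and 197 on the miR-369-3p arrays and 289 and 303 on the NT arrays (1.42 ± 0.23 SE, adjusted p = 0.00143). In these, miR-410 lay above the control and miR-369-3p below it. The autophagy protein GABARAP measured 74.1 and 156 on the miR-410 arrays, 36.3 and 44.7 on the miR-369-3p arrays and 61.0 and 71.2 on the NT arrays (1.42 ± 0.36 SE, adjusted p = 0.0324), with 1 miR-410 array close to the control. Its call was lost without miR-410 replicate 2, miR-369-3p replicate 1 or miR-369-3p replicate 2 (adjusted p up to 0.329). The other genes of the 15 highest were CPOX of heme synthesis (1.17), the pseudogene SFTA1P (1.16), LIFR, the leukemia inhibitory factor receptor (1.15), the membrane protein HEG1 (1.14), IGFBP1, which binds insulin-like growth factors (1.12), and the matrix protease ADAMTS6 (1.12). LIFR, detected on 1 of the miR-369-3p arrays, and ADAMTS6 lost their calls without miR-410 replicate 2 or miR-369-3p replicate 1 (adjusted p up to 0.362 and 0.0762), and IGFBP1 without miR-410 replicate 1 or miR-369-3p replicate 2 (up to 0.094). Of these 30 leading genes, 22 were called under every alternative tried.

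**Figure D2:**
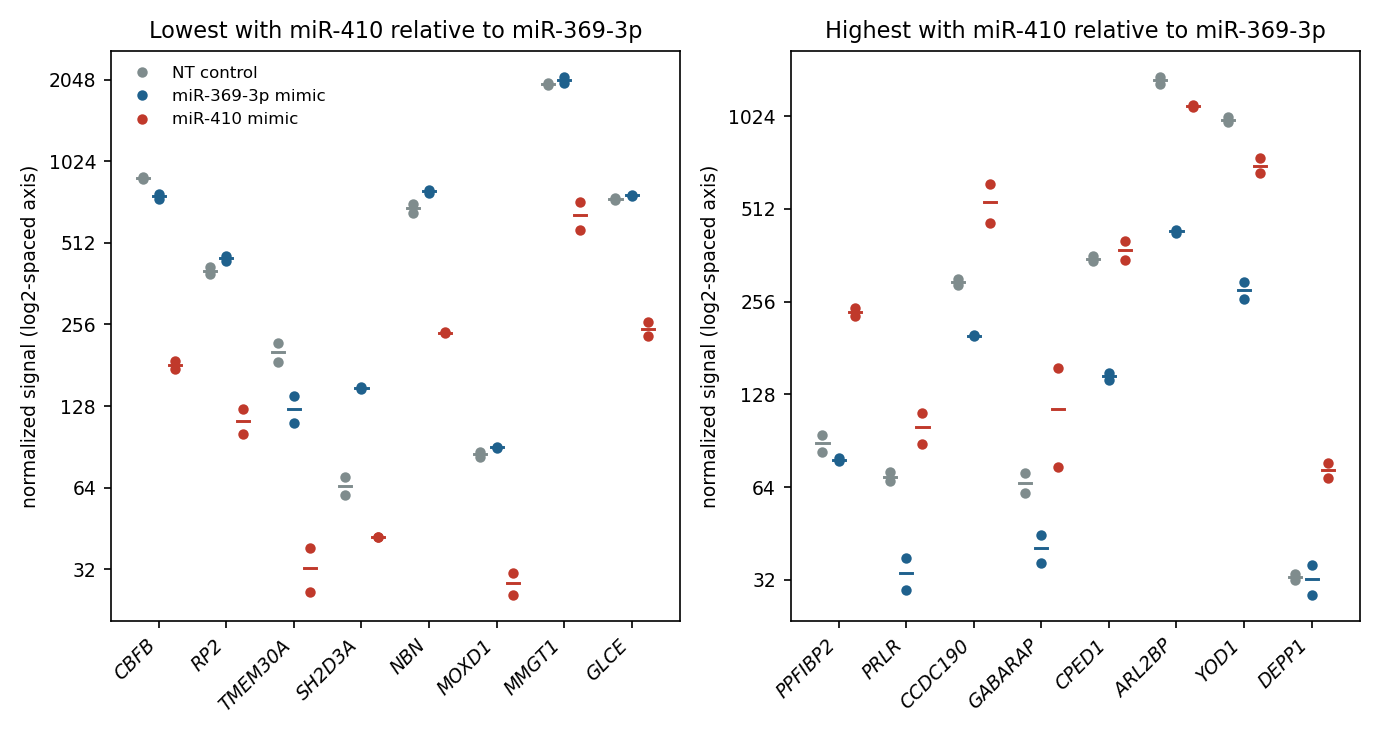
Normalized signal (log2-spaced axis) on each array for 16 leading genes, 8 of each direction of the difference between the mimics. Points are single arrays and short lines the mean of 2. In the left panel miR-410 lies below miR-369-3p and the NT control for every gene, and in the right panel ARL2BP, YOD1 and CPED1 are low with miR-369-3p while PPFIBP2 and DEPP1 are high with miR-410.

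Probes within a gene mostly moved together. Of 106 lower genes with another tested probe, 94 had all other probes on the same side of 0, 44 had another probe called lower and 0 had one called higher in the limma fit. For the 62 higher genes the numbers were 52, 18 and 1. BMPR2 and TMEM64 each had a second probe that was also called, at -1.50 and -0.75. TSNAX did not, with its dim second probe at -0.20 (adjusted p = 0.665).

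The mimics were next set beside the NT control. The differences from the control share the NT arrays, so each mimic's values are only set side by side. Of the member probes, miR-410 lowered 881 (4.52%) and raised 787 (4.04%), and miR-369-3p lowered 594 (3.05%) and raised 527 (2.71%). The 476 probes lower with miR-410 had a median log2 difference from the control of -0.67 with miR-410 and 0.11 with miR-369-3p. The 306 higher probes had medians of 0.39 and -0.26. A small group stood on opposite sides of the control, below it with either mimic and above it with the other, both differences called. In 5 genes miR-410 was below and miR-369-3p above. ARHGEF35 measured 205 and 216 on the miR-410 arrays, 555 and 547 on the miR-369-3p arrays and 334 and 311 on the NT arrays, and MCOLN3, a lysosomal cation channel, measured 88.7 and 111 on the miR-410 arrays, 264 and 246 on the miR-369-3p arrays and 151 and 171 on the NT arrays. PLS1, the actin-bundling plastin 1, measured 118 and 137 on the miR-410 arrays, 321 and 283 on the miR-369-3p arrays and 199 and 194 on the NT arrays. All arrays of each group were apart from those of the others in these genes. ARHGEF35 is nearly identical to part of ARHGEF5, so its probe may report both. RC3H2, the RNA-binding protein roquin-2, differed from the control by -0.50 with miR-410 and 0.54 with miR-369-3p, and TMEM64 by -0.54 and 1.05. The reverse arrangement held in 2 genes, PRLR (0.52 and -1.05) and SFTA1P (0.59 and -0.56). The control is a single reference, and the inhibitor arrays often lay away from it. TMEM64 measured 185 and 184 with the miR-410 inhibitor and 226 and 221 with the miR-369-3p inhibitor, near the miR-369-3p mimic. PRLR measured 26.8 and 25.5, and 33.5 and 31.8, also near that mimic. CPED1 measured 167 and 157, and 159 and 197, nearer to that mimic than to the control. YOD1 measured 388 and 387, and 424 and 387, below the miR-410 mimic and far below the control. ARL2BP, at 1339 and 1702, and 1378 and 1375, lay at the control or above it.

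Receptors, a SMAD and a target gene of bone morphogenetic protein (BMP) signaling were lower with miR-410. BMP ligands bind paired type I and type II receptors, which phosphorylate SMAD1, SMAD5 and SMAD9, and the ID genes are among their best-known targets. Of 13 member genes on the BMP list, 4 were lower and 0 higher by limma, where 2.95% and 1.85% of all member genes were. At an unadjusted p under 0.05, 7 were lower and 2 higher, where 1082 and 1122 of all 11267 member genes were. SAM called 4 lower and 0 higher, but over all member probes it called 417 lower and only 20 higher. The list median log2 difference was -0.44 beside 0.019 over all member genes. BMPR2, the type II receptor, measured 149 and 177 on the miR-410 arrays, 488 and 477 on the miR-369-3p arrays and 846 and 903 on the NT arrays (-1.57 ± 0.12 SE, adjusted p = 1.88e-06). Both mimics were below the control, miR-410 the more so, and the inhibitor arrays, at 502 and 579 for miR-410 and 495 and 543 for miR-369-3p, lay near the miR-369-3p mimic. SMAD5, a receptor-activated SMAD, measured 601 and 530.2 on the miR-410 arrays, 933 and 947 on the miR-369-3p arrays and 1325 and 1341 on the NT arrays (-0.74 ± 0.11 SE, adjusted p = 0.000763). RGMB, a BMP co-receptor, measured 53.9 and 52.5 on the miR-410 arrays, 91.0 and 101 on the miR-369-3p arrays and 141 and 142 on the NT arrays (-0.85 ± 0.18 SE, adjusted p = 0.012), and ID3, a BMP-induced inhibitor of helix-loop-helix factors, measured 228 and 205 on the miR-410 arrays, 380.3 and 423 on the miR-369-3p arrays and 519 and 474 on the NT arrays (-0.89 ± 0.12 SE, adjusted p = 0.000241). In all 4 the order was miR-410, then miR-369-3p, then the control, with no overlap. The inhibitor arrays also lay below the control in these genes. With the inhibitors of miR-410 and miR-369-3p, ID3 measured 320 and 355, and 252 and 246, below the miR-369-3p mimic. RGMB measured 81.5 and 86.3, and 72.8 and 126. SMAD5 measured 1037 and 1127, and 1059 and 1137, between the miR-369-3p mimic and the control. SMAD6, the inhibitory SMAD, was -0.54 (adjusted p = 0.119) and ID1 was -0.44 (adjusted p = 0.0202, under the fold required). NEO1, at 0.42, and ACVR1, a type I receptor, at 0.37, were not called. RGMB lost its call when any 1 of the 4 arrays was left out (adjusted p up to 0.127), and the other 3 kept theirs. The list was chosen with results of these data known, as were all lists below.

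PMEPA1 and TGFBR2 were lower with miR-410 among genes of transforming growth factor-beta signaling, and TGFB3 was higher. This pathway signals through TGFBR1 and TGFBR2 to SMAD2 and SMAD3. Of 26 member genes, 2 were lower with miR-410 and 1 was higher (11.5% together, where 4.8% of all member genes were called), with a median of -0.17. PMEPA1, a target gene whose product restrains the pathway, measured 241 and 279 on the miR-410 arrays, 613 and 597 on the miR-369-3p arrays and 772 and 778 on the NT arrays (-1.22 ± 0.14 SE, adjusted p = 8.11e-05), with miR-410 well below both other groups. The type II receptor TGFBR2, one of the study's candidate genes, measured 1418 and 1647 on the miR-410 arrays, 2450.0 and 2594 on the miR-369-3p arrays and 3499 and 3598 on the NT arrays (-0.72 ± 0.14 SE, adjusted p = 0.00493). Both mimics lay below the control and miR-410 below miR-369-3p, with no overlap. The inhibitor arrays were as low as the miR-410 mimic, at 1444 and 1468 for miR-410 and 1712 and 1555 for miR-369-3p. A second bright probe of TGFBR2 gave -0.51 (adjusted p = 0.00872), and another, near background, -0.026 (adjusted p = 0.98). The call of the brightest probe was lost without miR-410 replicate 1 or miR-369-3p replicate 2 (adjusted p up to 0.0769). The ligand TGFB3 was higher with miR-410, 41.8 and 43.3 against 25.8 and 26.6, but was not above background with miR-369-3p, which bounds the difference at at least 1.54-fold higher. Its call was lost when any 1 of the 4 arrays was left out (adjusted p up to 0.117). SMAD2 (-0.48), SMAD4 (-0.27) and SMAD3 (0.35) were not called.

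CILK1, CDH11 and MET did not pass the test between the mimics. CILK1, a kinase of cilium formation formerly named ICK, measured 394 and 356 on the miR-410 arrays, 342 and 327 on the miR-369-3p arrays and 1332 and 1385 on the NT arrays (0.16 ± 0.14 SE, adjusted p = 0.67). Both mimics were thus far below the control, at -1.86 and -2.02 on the log2 scale. The inhibitor arrays were below it too, though less so, at 825 and 927 for miR-410 and 873 and 671 for miR-369-3p. CDH11, a mesenchymal cadherin, measured 53.3 and 48.7 on the miR-410 arrays, 41.3 and 32.2 on the miR-369-3p arrays and 86.4 and 101 on the NT arrays (0.48 ± 0.22 SE, adjusted p = 0.298), also below the control with both. MET, the hepatocyte growth factor receptor, measured 267 and 321 on the miR-410 arrays, 252 and 249 on the miR-369-3p arrays and 385 and 356 on the NT arrays (0.23 ± 0.16 SE, adjusted p = 0.572), and was called lower than the control with miR-369-3p (-0.56) but not with miR-410 (-0.34). CDH11 measured 44.96 and 26.6 with the miR-410 inhibitor and 31.9 and 30.5 with the miR-369-3p inhibitor. Its inhibitor arrays were thus below the control too, and each inhibitor lay below the mimic of the same microRNA. MET measured 328 and 295 with the miR-410 inhibitor and 228 and 301 with the miR-369-3p inhibitor, also below the control.

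**Figure D3:**
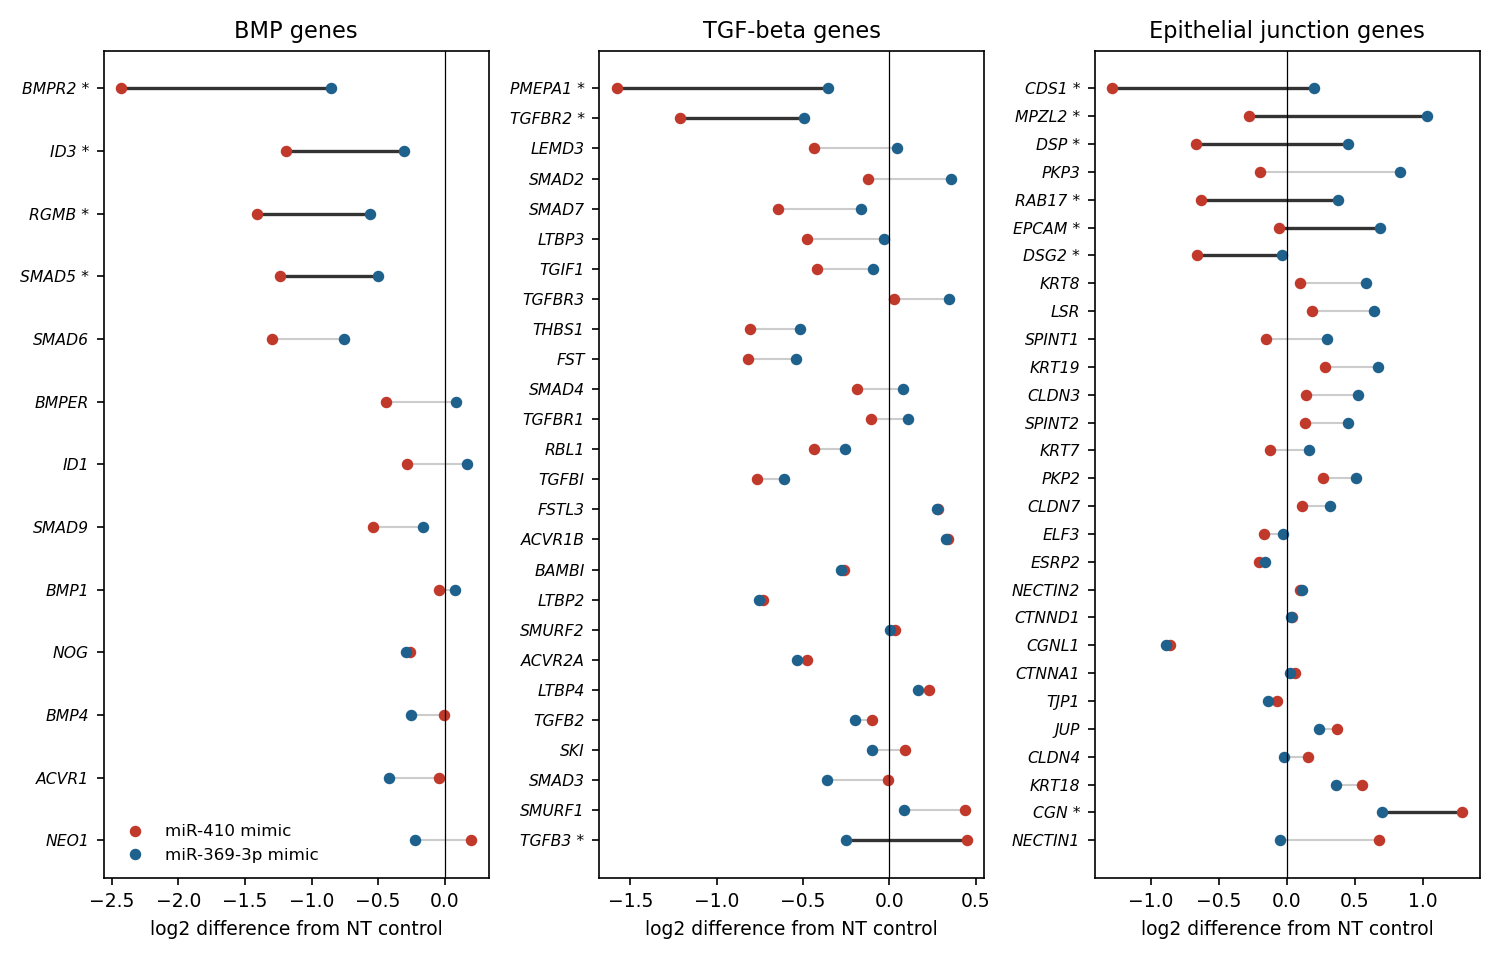
Log2 difference from the NT control (x axis) of every member gene on the BMP, transforming growth factor-beta and epithelial lists with miR-410 (red) and miR-369-3p (blue), means of 2 arrays each. Dark bars and asterisks mark genes called between the mimics. BMPR2, ID3, RGMB and SMAD5 are lower with miR-410. Of the called epithelial genes MPZL2, EPCAM and CGN are called above the control with miR-369-3p. With miR-410, CDS1, RAB17 and DSG2 are called below the control and CGN above it.

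Of 28 epithelial adhesion and junction genes, 6 were lower with miR-410 and 1 was higher (25% together, where 4.8% of all member genes were called), with a median of -0.27. MPZL2, an epithelial adhesion protein, measured 31.3 and 48.5 on the miR-410 arrays, 102 and 91.2 on the miR-369-3p arrays and 45.6 and 48.7 on the NT arrays (-1.31 ± 0.16 SE, adjusted p = 0.000122), so that miR-369-3p was above the control and miR-410 near it. EPCAM, the epithelial cell adhesion molecule, showed the same arrangement at 518 and 489 on the miR-410 arrays, 899 and 787 on the miR-369-3p arrays and 563 and 487 on the NT arrays (-0.74 ± 0.13 SE, adjusted p = 0.00256). The desmosomal plaque protein DSP measured 110.2 and 108 on the miR-410 arrays, 228 and 246 on the miR-369-3p arrays and 174 and 174 on the NT arrays (-1.12 ± 0.24 SE, adjusted p = 0.0127), between which the control lay. The desmosomal cadherin DSG2 measured 852 and 958 on the miR-410 arrays, 1389 and 1397 on the miR-369-3p arrays and 1349 and 1511 on the NT arrays (-0.62 ± 0.12 SE, adjusted p = 0.00594), with miR-369-3p at the control. CDS1, described above, is a lipid enzyme, and RAB17, a GTPase of polarized transport, was not above background on the miR-410 arrays (40.5 and 54.3 with miR-369-3p), which makes it at least 1.69-fold lower. RAB17 was not called with the authors' table of values (adjusted p = 0.0592) or without background correction. With the inhibitors of miR-410 and miR-369-3p, CDS1 measured 24.6 and 27.0, and 39.2 and 47.9, below the control like the miR-410 mimic. RAB17 measured 24.5 and 23.0, and 24.7 and 22.7, also near the miR-410 mimic, and DSG2 1194 and 1219, and 1175 and 1325. CGN, the tight junction protein cingulin, was the gene higher with miR-410, at 87.0 and 73.7 on the miR-410 arrays, 56.8 and 49.9 on the miR-369-3p arrays and 32.7 and 32.9 on the NT arrays (0.59 ± 0.13 SE, adjusted p = 0.0163), above the control with both mimics. Calls were lost for DSP without any 1 of the 4 arrays (adjusted p up to 0.113), for DSG2 without miR-410 replicate 1 or either miR-369-3p array (up to 0.0853), for EPCAM without miR-369-3p replicate 1 (0.0555) and for CGN without miR-410 replicate 1 or miR-369-3p replicate 2 (up to 0.192), so the number of lower genes ranged from 3 to 6. Of 16 mesenchymal genes and transition factors, 0 were called by limma or SAM, while 1 was lower and 3 were higher at an unadjusted p under 0.05. At that unadjusted p, 1082 of all 11267 member genes were lower and 1122 higher.

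Ubiquitin ligases and deubiquitinases held the leading genes ITCH and YOD1 on opposite sides. Of 42 member genes, 4 were lower with miR-410 and 1 was higher (11.9% together, where 4.8% of all member genes were called), with a median of -0.055. ITCH, a HECT-domain ligase, measured 116 and 125 on the miR-410 arrays, 339 and 337 on the miR-369-3p arrays and 308 and 343 on the NT arrays (-1.49 ± 0.12 SE, adjusted p = 2.4e-06), with miR-369-3p at the control. USP46, a deubiquitinase, measured 41.8 and 35.6 on the miR-410 arrays, 104 and 96.7 on the miR-369-3p arrays and 82.7 and 60.5 on the NT arrays (-1.38 ± 0.17 SE, adjusted p = 0.000166), also lowest with miR-410. UBE2A, a conjugating enzyme, was -0.60 (adjusted p = 0.00241) and the F-box protein BTRC -0.56 (adjusted p = 0.0474). BTRC lost its call without any 1 of the 4 arrays (up to 0.329).

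Of the measured inhibitors of RAS signaling in the SPRED and SPRY families, SPRED1 was lower with miR-410, SPRED2 and SPRY2 were higher, and SPRY4 (-0.50, adjusted p = 0.228) and SPRY1 (0.050, adjusted p = 0.935) were not called. SPRED1 measured 699 and 800.2 on the miR-410 arrays, 1601 and 1469 on the miR-369-3p arrays and 1763 and 1715 on the NT arrays (-1.04 ± 0.12 SE, adjusted p = 8.02e-05), and was lowest with miR-410. SPRED2 was higher by 0.63 (adjusted p = 0.0334) and SPRY2 by 0.70 (adjusted p = 0.0121), SPRY2 being below the control with miR-369-3p (-0.58). RASGRP3, which activates RAS, was lower (-0.61, adjusted p = 0.0337), called above the control with miR-369-3p (0.84) but not with miR-410 (0.23). These made 2 lower and 2 higher among 27 genes (14.8% together, where 4.8% of all member genes were called), with a median of 0.0054. Only the call of SPRED1 among these 4 held without each single array. SPRED2 and RASGRP3 lost theirs without any 1 of the 4, and SPRY2 without miR-410 replicate 2 or either miR-369-3p array (adjusted p up to 0.234, 0.249 and 0.144).

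Other lists each held few called genes, to be read against the 2.95% lower and 1.85% higher of all member genes. In the Hippo pathway YAP1, the transcriptional co-activator, was lower with miR-410 (145 and 202 against 333 and 318, log2 difference -0.93) and so was WWC1 (-0.51), while the upstream kinase STK4 was higher (0.50), making 3 called of 29. Among hypoxia and glycolysis genes BNIP3L, a mitophagy receptor, was lower (631 and 682 against 1259 and 1215, -0.91) and CA12, a carbonic anhydrase, higher (529.9 and 519 against 226 and 259, 1.12), with P4HA2 lower (-0.51) and NDRG1 higher (0.52), 4 of 37. Of these, BNIP3L and CA12 kept their calls without each single array, but YAP1 and WWC1 lost theirs without miR-410 replicate 1 or miR-369-3p replicate 1, STK4 and NDRG1 without replicate 2 of either mimic, and P4HA2 without miR-410 replicate 1 or either miR-369-3p array (adjusted p up to 0.101, 0.0696, 0.106, 0.056 and 0.13). The endoplasmic reticulum chaperone DNAJB9 was lower (116 and 126 against 344 and 311, -1.43), as was AGO3, an Argonaute protein (82.1 and 85.0 against 162 and 144, -0.87). Both calls held without each single array, and they made 1 lower of 31 genes of the unfolded protein response, where ATF3 was higher (0.63), and 1 of 29 of microRNA processing and silencing. AKR1C2, a target of NRF2, was lower (-0.86), and WDR20, at the microRNAs' own locus, was higher (0.54), 1 of 11 genes there. These calls were lost without miR-410 replicate 2 or either miR-369-3p array for ATF3, miR-410 replicate 1 or miR-369-3p replicate 2 for AKR1C2 and miR-369-3p replicate 1 for WDR20 (adjusted p up to 0.253, 0.125 and 0.0533).

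Cell division and growth factor lists held few called genes. Of 47 genes of DNA replication MCM10 alone was lower (-0.68), and of 51 of mitosis KIF23 alone (-0.74). CDK2 was lower (-0.56) and the inhibitor CDKN1C higher (0.78) among 26 genes of the G1 phase. The transcription factors FOXO3 (0.53) and FOXO4 (0.54) were higher among 27 genes of phosphoinositide 3-kinase and mTOR signaling, the ligand PDGFC (0.53) among 25 receptor tyrosine kinases and ligands, and PMAIP1 (0.83) among 24 p53 targets. Each of these 8 calls was lost without at least 1 of the 4 arrays, CDK2 without any of them (adjusted p up to 0.282), MCM10 without miR-410 replicate 1, miR-410 replicate 2 or miR-369-3p replicate 1 (0.137), KIF23 and FOXO3 without replicate 2 of either mimic (0.088 and 0.079), FOXO4 without replicate 1 of either (0.189), PDGFC and PMAIP1 without miR-410 replicate 2 or either miR-369-3p array (0.0679 and 0.146), and CDKN1C without miR-369-3p replicate 2 (0.0564). Wnt signaling (24 genes), cholesterol synthesis (34), AU-rich element binding and decay (25) and cytosolic ribosomal proteins (73) held 0 called genes by limma. At an unadjusted p under 0.05 there were 1 lower and 4 higher in the first, 0 and 8 in the second, 1 and 4 in the third and 2 and 1 in the last, and SAM, run for the first 3, called 0. At that unadjusted p, 1082 of all 11267 member genes were lower and 1122 higher.

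Matrix, adhesion and inflammatory genes were also scattered. ITGB4, the integrin beta 4 chain, was lower with miR-410 (872 and 1125 against 1570.1 and 1616, -0.69), the control being near miR-410 (971 and 1025), and the proteoglycan SDC1 was lower (-0.54), 2 of 37 integrin and adhesion genes. Of 36 matrix genes COL6A3 (-0.72) and P4HA2 were lower and COL4A1 (0.58) was higher. The chemokine CXCL8 was higher (239 and 152 against 104 and 89.8, 0.98) and the cytokine IL24 lower (-0.52) among 26 inflammatory genes, IRF7 higher (0.79) and MX1 lower (-0.59) among 43 interferon-stimulated genes, TPM2 higher (0.77) and ARHGDIB lower (-0.54) among 53 of the actin cytoskeleton. CXCL8 measured 226 and 216 on the NT arrays and was called below them with miR-369-3p (-1.19) but not with miR-410 (-0.21). With the inhibitors of miR-410 and miR-369-3p CXCL8 measured 2377 and 2200, and 2197 and 1781, far above the control. The calls of ITGB4, SDC1, MX1 and CXCL8 were lost without miR-410 replicate 1 or either miR-369-3p array, those of COL6A3 and IRF7 without replicate 1 of either mimic, COL4A1 without replicate 2 of either, TPM2 without miR-410 replicate 2 or miR-369-3p replicate 1, and IL24 and ARHGDIB without any 1 of the 4 (adjusted p up to 0.331, 0.314, 0.229, 0.244, 0.0876, 0.0817, 0.0705, 0.079, 0.374 and 0.122 in that order).

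Small nucleolar and Cajal body RNA genes, 123 of them measured, were in part lower than the control with each mimic. Between the mimics 4.07% of them were called, where 4.8% of all member genes were. With miR-410, 22 were lower than the control and 1 was higher, where 4.93% and 4.6% of all member genes were. With miR-369-3p the counts were 21 and 2, where 3.14% and 3.18% of all member genes were. Both sets of counts rest on the same 2 NT arrays, and the list was not counted on the inhibitor arrays. Between the mimics, SNORA25 (-0.83) and SNORA65 (-0.50) were lower with miR-410, and SNORD36C (0.54), SNORA3B (0.54) and SNORA79 were higher. SNORA79 measured 55.6 and 50.8 on the miR-410 arrays, 23.8 and 27.0 on the miR-369-3p arrays and 96.7 and 112 on the NT arrays, not above background with miR-369-3p, so that miR-410 was at least 1.92-fold higher. With the inhibitors of miR-410 and miR-369-3p, SNORA79 measured 35.5 and 21.4, and 31.1 and 33.4, also far below the control. SNORD36C lay below the control with both inhibitors too. SNORA65 lay above it (133 and 106, and 89.0 and 95.7), and SNORA25 and SNORA3B were on neither side throughout. Only the call of SNORA25 among these 5 held without each single array. SNORA79 lost its call without background correction, with plain background subtraction (adjusted p = 0.166), with the authors' table of values (0.199) and without miR-369-3p replicate 1, SNORD36C and SNORA3B without miR-410 replicate 2 or either miR-369-3p array and SNORA65 without any 1 of the 4 (adjusted p up to 0.0609, 0.106, 0.185 and 0.36 with an array left out).

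**Figure D4:**
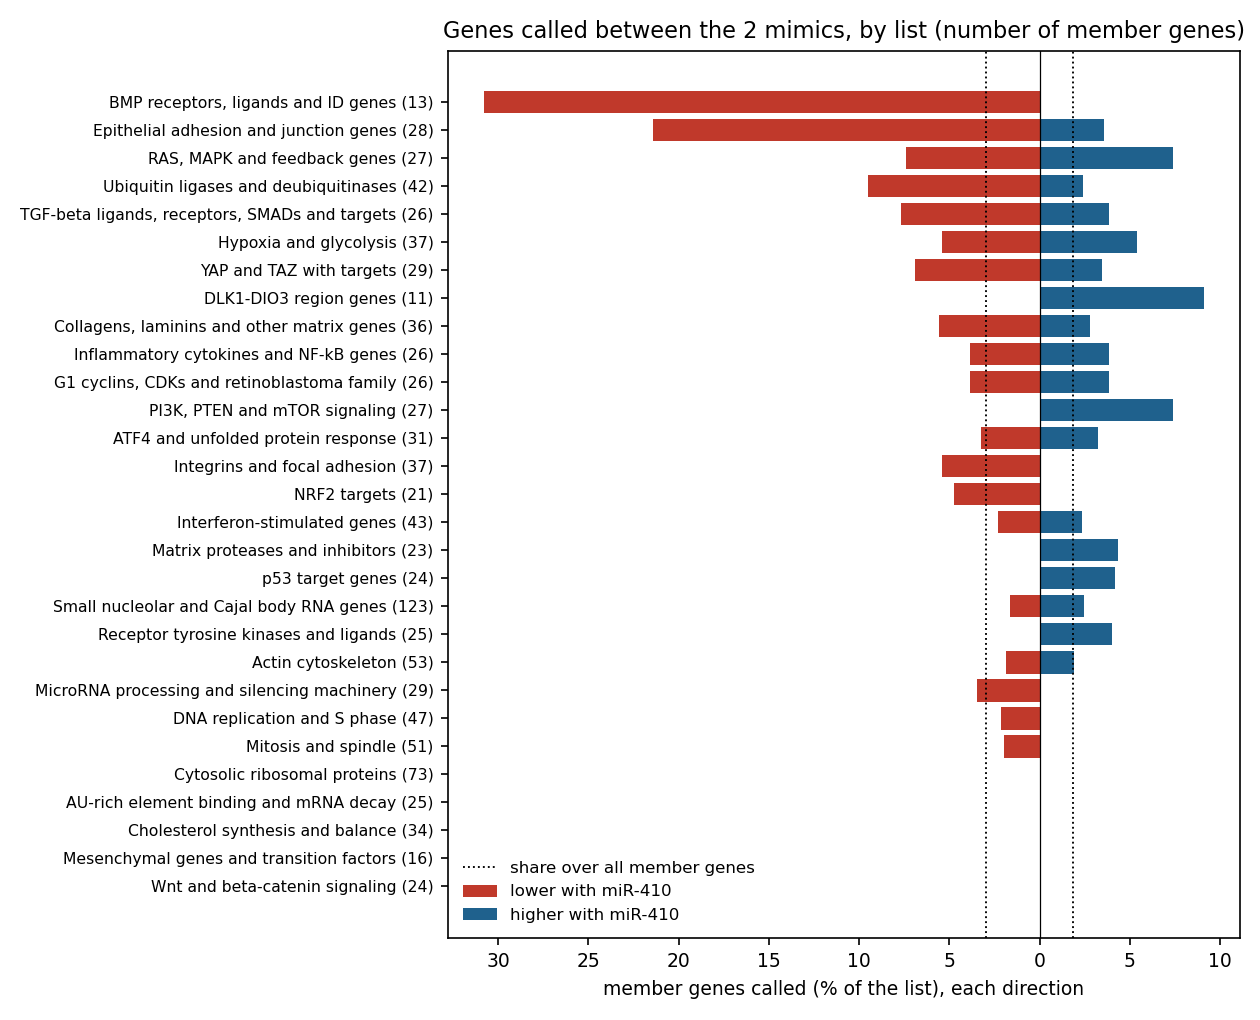
Share of member genes on each list called lower (red, to the left) or higher (blue, to the right) with miR-410 than with miR-369-3p, in percent, with the number of member genes in parentheses. Dotted lines are the shares over all 11267 member genes (2.95 and 1.85). The BMP and epithelial lists reach farthest to the left.

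The miR-655-3p arrays, whose levels do not enter the difference between the mimics but which share in the common estimate of spread, gave different shares in the 2 directions. Against the NT control, miR-655-3p lowered 6.65% and raised 6.12% of all member probes. Of the 306 probes higher with miR-410, that is lower with miR-369-3p, it lowered 75 (24.5%) and raised 21 (6.86%). Of the 476 probes lower with miR-410 it lowered 63 (13.2%) and raised 120 (25.2%). With the miR-655-3p inhibitor arrays as reference, for which 5.59% and 4.54% of member probes were called lower and higher, the counts were 70 and 22, and 50 and 114. Genes called lower with miR-655-3p and lower with miR-369-3p than with miR-410 were led by CPED1, ARL2BP, YOD1, CPOX, SCG2, HEG1, IGFBP1 and ZSWIM4. HEG1 measured 798 and 861 on the miR-410 arrays, 339 and 419 on the miR-369-3p arrays and 1114 and 1064 on the NT arrays, and 158 and 205 on the miR-655-3p arrays. On the same arrays ARL2BP was at 376 and 396, YOD1 at 256 and 296 and CPED1 at 104 and 120.1, close to or below the miR-369-3p arrays. The log2 differences of HEG1, ARL2BP, YOD1 and CPED1 from the control were -2.60, -1.79, -1.85 and -1.66 with miR-655-3p. From the miR-655-3p inhibitor arrays they were -2.06, -1.78, -0.56 and -1.08, so that of YOD1 was much smaller there. SCG2, by contrast, was at 68.8 and 77.9 on the miR-655-3p mimic arrays, although with miR-369-3p it had been close to the control.

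Among probes lower with miR-410 the miR-655-3p values went both ways. CBFB was as low with miR-655-3p, 175 and 197, as with miR-410, and RP2 was 168 and 183, between miR-410 and the control. SH2D3A (360.3 and 434) and the epithelial MPZL2 (467 and 410.2) and EPCAM (3459.5 and 3731) were instead far above the control with miR-655-3p, by 2.61, 3.22 and 2.78 on the log2 scale. NBN, MMGT1 and MOXD1 were not called with miR-655-3p (0.033, 0.28 and -0.19).

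**Figure D5:**
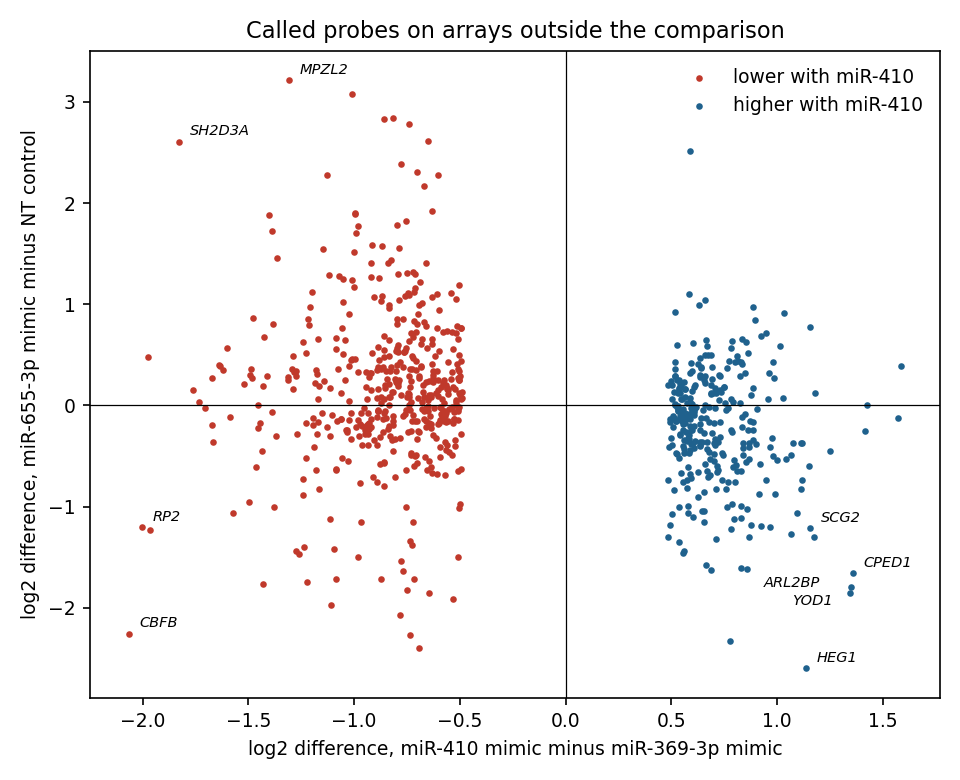
Log2 difference between the miR-410 and miR-369-3p mimics (x axis) and between the miR-655-3p mimic and the NT control (y axis) for the 476 probes called lower (red) and 306 called higher (blue) with miR-410. HEG1, YOD1, ARL2BP and CPED1 lie at the lower right, CBFB and RP2 at the lower left, and SH2D3A and MPZL2 at the upper left.

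The inhibitor arrays gave shares near those of all member probes for the lower probes. Between the miR-410 and miR-369-3p inhibitors 2.9% of member probes were lower and 4.06% higher. Of the 476 probes lower with the miR-410 mimic 16 were lower (3.36%) and 19 higher (3.99%), and of the 306 higher probes 18 were lower (5.88%) and 6 higher (1.96%). CBFB measured 672 and 750.2 with the miR-410 inhibitor and 692 and 583 with the miR-369-3p inhibitor, overlapping groups. RP2 measured 296 and 368 against 263 and 140.2 and was called higher with the miR-410 inhibitor (log2 difference 0.78, adjusted p = 0.0438). Of the other genes named as leading or as lying on opposite sides of the control, CDS1 (-0.75, adjusted p = 0.0393) and MCOLN3 (-0.53, adjusted p = 0.0321) were called lower with the miR-410 inhibitor.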

How the data were processed

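Sample labels gave the groups. The authors deposited raw bead intensities, neither background-subtracted nor normalized, each with a detection p-value. They also deposited log2 values that BeadStudio had background-subtracted and quantile normalized, of which 13353 to 13395 per array are missing. The deposited intensities were background-corrected from the detection p-values with an offset of 16 and quantile normalized (neqc, limma 3.58.1, R 4.3.3). A probe was tested where some group, of 12, had it detected (p under 0.05) on both its arrays. These 22803 were fitted by limma as 12 group means over 24 arrays (12 residual and 3.96 prior degrees of freedom), so every group shares 1 spread. The Benjamini-Hochberg adjustment ran over all 22803. The number of arrays limits the precision.

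A gene is represented by its brightest tested probe. Of all probes, 30109 carry 1 gene symbol, 8 several and 17192 none (57 lower and 47 higher called probes lack one), and 30070 symbols were taken through a gene ID table. A gene not above background on both arrays of a group has its fold given as a bound against the detection level. Genes were named by rule: the 15 lowest and 15 highest differences among called genes without overlap between arrays (8 of each in full), TGFBR2, CILK1, CDH11 and MET, up to 4 called members of larger lists, genes on opposite sides of the control, and the 8 leading genes also lower with miR-655-3p. Further called list members are named to account for their lists. A further gene that the rule names is not reported here. The comparison, the lists and the rule were chosen with earlier results of these data known. It had been assumed that miR-655-3p carries the miR-369-3p seed. Their seeds are instead shifted by 1 base.

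The procedure was tested on simulated data drawn for this comparison over 22803 probes. Of 50 probes each changed by -2, -1, 1 and 2 on the log2 scale the fit called 49, 41, 39 and 50, and 11 unchanged probes falsely. For SAM, rewritten here for 2 arrays a group, these numbers were 46, 6, 8 and 44, and 4. Alternatives were other background corrections, the authors' table, median scaling, other filters and thresholds, a fit of the 4 arrays, SAM, a replicate block and leaving out each array. Figures used matplotlib 3.10.9 under Python 3.11.15.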

Additional observations from a re-analysis of the deposited data

How the results depend on the processing

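Against 476 probes lower and 306 higher with miR-410, the counts were 251 and 106 without background correction, 184 and 49 from the 4 arrays alone and, for SAM, 417 and 20. The limma fit of 4 arrays has fewer residual degrees of freedom, and the cause of the other changes was not tested. Leaving out 1 array, which assumes that the lone array varies like the other groups, gave 241 to 370 lower and 107 to 166 higher. Plain background subtraction (442 and 257), the authors' table (447 and 264), median scaling (405 and 324), no filter (439 and 273), a detection p under 0.01 (497 and 304), adjustment over member probes only (505 and 325) and no fold threshold (539 and 379) stayed within 1.5 times. No probe called in both a setting and the comparison as reported changed direction, over all 15 alternatives. Of 95 genes followed, 62 kept their side of the threshold without background correction, 47 in the fit of 4 arrays, 60 with SAM, 58 to 68 with an array left out and 84 or more under each other alternative. The miR-655-3p counts stayed within 1.5 times with its inhibitor as reference. The replicate numbers did not visibly pair the arrays of the 2 mimics, whose replicate differences correlated at r = 0.059 across member probes. Over 66 pairs of groups these correlations had a median of 0.041 and ran from -0.485 to 0.521. In some pairs of groups the replicate differences were therefore related, in either direction, and the reason was not tested. With the replicate block 469 were lower and 308 higher, and BTRC, CDK2, ITGB4 and SNORA65 lost their calls (adjusted p = 0.0601, 0.0525, 0.0505 and 0.0523). A slide block was not run because no slide is named, and seed sites in transcripts were not analysed here. Signals near background limit dim genes such as MOXD1, RAB17, TGFB3 and SNORA79.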
